A study of Homo sapiens with 12 samples.

Results

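The replication-dependent histone genes were taken from the deposited count table as the rows whose gene name starts with HIST1H, HIST2H, HIST3H or HIST4H, without the numbered pseudogenes (PS and a digit) and on the primary chromosomes. The rule found 76 genes among the 64253 of the table, of which 6 were H1 genes, 17 H2A, 23 H2B, 15 H3 and 15 H4. RNA was measured in 2 human cell lines from non-small-cell lung tumours, H460 and H1299. The paper describes H460 as containing p53 and H1299 as deficient in it. Each line was transfected with a control siRNA (siCont) or an siRNA against the nerve growth factor receptor NGFR (siNGFR), and each of the 4 groups had 3 libraries of total RNA depleted of ribosomal RNA. The H460 libraries are called 4, 5 and 6 here after their columns, and a further 3 in the H1299 siNGFR titles is not explained. Each line stands for 1 tumour, and the differences between the lines, p53 among them, cannot be told apart from each other.

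Histones H2A, H2B, H3 and H4 form the core of the nucleosome around which DNA is wound, and the H1 linker histones bind the DNA where it enters and leaves that core. Cells that copy their DNA must make histones in step, so the clustered histone genes are expressed mainly in S phase. Their mRNAs have no poly(A) tail and end in a stem-loop that is bound by SLBP and cut with the help of the U7 small nuclear RNA. A library of rRNA-depleted total RNA can hold such mRNAs, which selection for poly(A) would mostly lose.

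The stem-loop is shown because it defines the class. In the GENCODE annotation of GRCh38 (release 29), 70 members have a coding sequence and 36 of them have at least 30 bases annotated after the stop codon. A perfect stem of 6 bases that begins with GG, around a loop of 4 bases that begins with TT, lay within 150 bases after the stop codon of 30 members. These 30 held 4 different sequences of stem and loop. The first was found in 17 genes of H2A, H2B and H3, the second in 5 genes of H4, the third in 5 genes of H2B and H3, and the fourth in 3 genes of H4. One member of each is printed 5′ to 3′ with the stem in capitals, at chr1:149842219-149842243 (minus strand), chr6:27824454-27824478 (plus strand), chr6:26270919-26270943 (minus strand) and chr1:149833027-149833051 (plus strand).
HIST2H2AA3: caaaaGGCTCTtttcAGAGCCaccc
HIST1H4J: taaaaGGCCCTtttcAGGGCCaccc
HIST1H3G: aaaaaGGCTCTtttaAGAGCCgcct
HIST2H4A: ccaaaGGCCCTttttAGGGCCgacc

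Promoter windows from RefSeq (GRCh38.p14, 250 bases before to 50 after the start of each gene) were matched for 64 members, and 4 motifs were searched on both strands. CCAAT lay in 84.4% of the 64 windows, against 34.6% of all 35116 windows of that length. It was in all 6 H1, 16 H2A, 18 H2B and 12 H3 windows, and in 2 of 12 H4 windows. TATAAA lay in 67.2% of the members' windows and 11.5% of all windows. The octamer ATTTGCAT was in 11 of 16 H2A and 14 of 18 H2B windows, in 0 windows of the other classes, and in 1.77% of all windows. AAACACA, known from H1 promoters, was in 6 of 6 H1 windows, 3 other members' windows and 5.64% of all windows. The windows of 11 pairs of H2A and H2B genes overlap, since these genes start back to back, so they are not independent sequences.

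The windows of 4 members on which the results turn are printed 5′ to 3′, with matches to the 4 motifs on either strand in capitals. HIST1H3G (chr6:26271364-26271663, minus strand) and HIST1H2BJ (chr6:27132746-27133045, minus strand) differed widely between the lines. HIST1H1B (chr6:27867539-27867838, minus strand) was called lower in H460 after siNGFR, and HIST1H4K (chr6:27831511-27831810, minus strand) is the H4 gene with the lowest fold change in H1299.
HIST1H3G: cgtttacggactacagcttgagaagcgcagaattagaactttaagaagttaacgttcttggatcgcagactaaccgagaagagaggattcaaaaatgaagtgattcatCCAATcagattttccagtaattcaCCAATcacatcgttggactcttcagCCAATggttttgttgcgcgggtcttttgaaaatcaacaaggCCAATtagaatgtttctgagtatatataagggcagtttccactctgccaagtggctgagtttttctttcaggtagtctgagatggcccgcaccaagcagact
HIST1H2BJ: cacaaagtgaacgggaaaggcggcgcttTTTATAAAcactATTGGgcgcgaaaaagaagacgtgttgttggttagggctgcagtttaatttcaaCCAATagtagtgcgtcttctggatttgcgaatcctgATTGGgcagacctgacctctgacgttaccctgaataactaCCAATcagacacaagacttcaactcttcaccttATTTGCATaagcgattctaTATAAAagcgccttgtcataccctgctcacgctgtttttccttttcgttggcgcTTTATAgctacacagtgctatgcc
HIST1H1B: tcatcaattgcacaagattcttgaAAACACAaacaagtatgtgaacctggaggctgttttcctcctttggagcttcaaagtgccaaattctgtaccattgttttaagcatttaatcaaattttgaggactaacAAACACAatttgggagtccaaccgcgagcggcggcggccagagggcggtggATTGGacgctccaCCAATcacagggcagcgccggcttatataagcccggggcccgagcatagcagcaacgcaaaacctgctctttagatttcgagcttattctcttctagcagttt
HIST1H4K: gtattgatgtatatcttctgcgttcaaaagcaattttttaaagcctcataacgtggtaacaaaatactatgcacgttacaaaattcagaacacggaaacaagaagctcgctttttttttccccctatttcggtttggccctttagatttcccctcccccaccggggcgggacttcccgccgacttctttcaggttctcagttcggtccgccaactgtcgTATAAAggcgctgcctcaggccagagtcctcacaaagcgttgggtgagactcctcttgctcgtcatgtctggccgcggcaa

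Within a class the members code for few proteins. Of the 15 H4 genes 14 code for the same protein, as do 10 of the 14 H3 coding genes, while the 17 H2A genes code for 11 proteins, the 18 H2B coding genes for 14 and the 6 H1 genes for 6. Identical coding sequences are found in HIST2H2AA3 and HIST2H2AA4, in HIST2H3A and HIST2H3C, in HIST2H4A and HIST2H4B, and in HIST1H4J and HIST1H4K, and the sources do not say how reads were divided within these pairs. HIST2H2AA3 had 51526, 55462 and 50360 counts in H460 siCont and HIST2H2AA4 51555, 55526 and 50553, so sums over the class may hold the same reads more than once. The rule also keeps 5 annotated pseudogenes (HIST2H2BA, HIST2H2BB, HIST2H2BD, HIST2H3DP1 and HIST3H2BA). Exons of 17 members overlap another gene, among them HIST1H2AM with HIST1H3J on the same strand, HIST1H2AD and HIST1H3D with AL031777.3, HIST2H2AB with BOLA1, and HIST2H2BB with AC239798.4. Reads of such genes cannot be told apart where exons are shared, and the use of strand in counting is not stated in those sources.

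The libraries held 16672164 to 36116823 counts, of which histone genes took 0.811% to 2.56%. NGFR had 0 to 6 counts in each library, too few to check the knockdown. Of 5 epithelial markers KRT8 and KRT18 were high in both lines, EPCAM and CDH1 were at or near 0, and KRT19 was near 0 in H1299, while the summed level of 3 leukocyte markers was at most 0.116 CPM (counts scaled to a common library total). H1299 siNGFR libraries 1 and 2 stood apart from library 3, and results that rest on them are given with and without library 3. The chi-square of the counts per degree of freedom was 182.5 and 154.7 to library 3, and 93.6 between libraries 1 and 2. Pairs of H1299 siCont libraries had 24.4 to 44.7, so libraries 1 and 2 also differed from each other. The value grows with the counts of the libraries, and siNGFR libraries 1, 2 and 3 held 33251429, 16672164 and 36116823. H460 siNGFR library 4 stood apart too, with 99.9 and 140.6 to libraries 5 and 6, against 26.8 between those. Results without H460 library 4 are given only among the fits leaving out 1 library. The removal of H1299 library 3 was chosen with results of these data known. The sequenced libraries are described as biological replicates, and a bulk library cannot tell fewer cells with a histone mRNA from less of it per cell.

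Levels are CPM after TMM scaling, which sets libraries to a common scale from most genes, and are given per kilobase of exon (per kb) where genes are compared with each other, as mean ± SD with n = 3. The order per kb rests on the exon lengths in the count table, which run from 312 bases for HIST1H4K to 1867 for HIST2H4A and 2260 for HIST2H2BE among the genes named here. HIST1H4J, an H4 gene, stood at 2516 ± 518 CPM per kb in H460 siCont and 6648 ± 2836 in H1299 siCont. HIST1H4K followed at 1397 ± 320 and 4651 ± 2887 CPM per kb. Both led the H4 genes per kb in each line, with values that did not differ beyond their spread in H1299. As a share of the H4 CPM without division by length, HIST2H4A and HIST2H4B were first in H460 siCont (26.6% each), before HIST1H4J (18.5%) and HIST1H4K (8.58%). HIST2H2AA3 led the H2A genes at 3677 ± 609 and 3209 ± 137 CPM per kb, with HIST2H2AA4 of the same coding sequence at 3585 ± 589 and 3119 ± 128, and HIST1H2AE came next at 899 ± 210 and 1073 ± 94.9. HIST1H1C, which codes for H1.2, led the H1 genes at 797 ± 97.6 and 1620 ± 91.4 CPM per kb. In H1299 HIST1H1B (1269 ± 108) and HIST1H1E (1249 ± 88.3) followed it and did not differ beyond their spread. HIST1H3B led the H3 genes per kb at 768 ± 143 and 1121 ± 330 CPM per kb, and HIST1H3F was next at 668 ± 27.9 and 792 ± 67.5, within the spread of HIST1H3B in both lines. As a share of the H3 CPM, HIST2H3C led with 29.97% in H460 siCont and 21.2% in H1299 siCont, against 9.51% and 14.3% for HIST1H3B. HIST1H2BH led the H2B genes per kb at 755 ± 111 and 645 ± 142 CPM per kb. In H460 the means of HIST2H2BE (685 ± 98.9) and HIST1H2BF (642 ± 125) lay within the range of its libraries, 639 to 859. In H1299 those of HIST1H2BK, HIST1H2BO, HIST1H2BC and HIST2H2BE lay within its range, 543 to 808. HIST1H2BD (539) and HIST1H2BF (505) lay below that range in H1299 but within the SD of HIST1H2BH. The length of HIST1H2BH is 381 bases in the count table and 2060 in the GENCODE annotation. As a share of the H2B CPM, HIST2H2BE led with 35.3% in H460 siCont and 28.5% in H1299 siCont, against 6.55% and 5.56% for HIST1H2BH. The 10 members with the highest CPM took 52.5% to 67.3% of the histone CPM of a library, and 64 to 67 of the 76 members had at least 1 CPM.

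In H460, the question was whether NGFR knockdown moved the histone genes. The summed level of each class in siNGFR overlapped that in siCont, and 5 single members were called lower. The H4 sum was 6053, 4910 and 4243 CPM in siCont libraries 4, 5 and 6 and 3485, 5648 and 6129 CPM in siNGFR. The H2A sum was 6917, 5653 and 5223 CPM in siCont and 4334, 6353 and 7302 CPM in siNGFR, and the H2B sum 4840, 4411 and 3881 and then 3273, 4751 and 5274 CPM. In all 3 classes siNGFR library 4 was the lowest of the 6 libraries and library 6 higher than every siCont library. The H3 sum was 3463, 3597 and 2853 CPM in siCont and 3404, 3573 and 3193 CPM in siNGFR, where library 4 was not low. The H1 sum was 1363, 1340 and 1174 CPM in siCont and 1247, 1122 and 1111 CPM in siNGFR, with siNGFR libraries 5 and 6 below every siCont library and library 4 inside their range. The log2 ratio of the group means lay between -0.16 for H1 and 0.04 for H3, beside replicate SDs of 0.11 and 0.14 on the same scale.

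**Figure D1:**
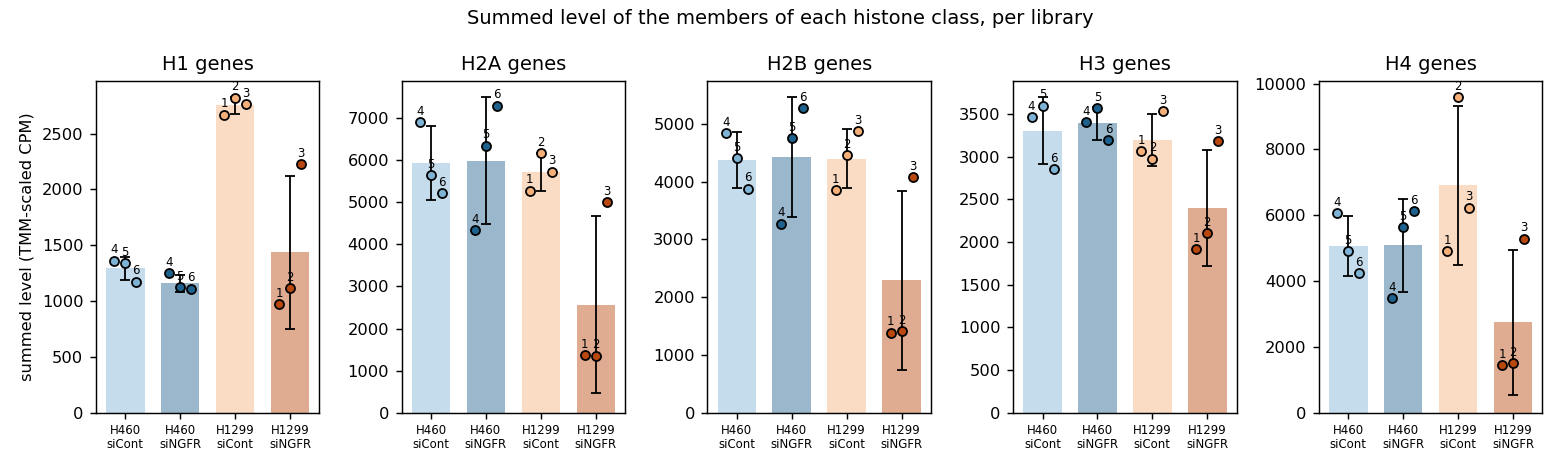
Summed TMM-scaled CPM of the members of each class (y axis) in the 4 groups (x axis), with 1 point per library and the group mean and SD. In H1299 siNGFR, libraries 1 and 2 lie below every siCont library in each class, and library 3 lies inside the siCont range for H2B, H3 and H4 and below it for H1 and H2A.

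Of the 67 members tested in H460 by edgeR's quasi-likelihood test, 0 were called higher (background 1.81% of all 19837 genes tested) and 5 lower (background 2.5%) at an adjusted p under 0.05. At an unadjusted p under 0.05, 1 member was higher and 17 were lower, against 9.42% and 9.82% of all genes. DESeq2 called 0 higher and 9 lower, against 2.24% and 2.47% of all genes. The median log2 fold change was -0.12 over the members and 0.01 over all genes. For 1 member, HIST1H2BI, all siNGFR libraries were higher than all siCont libraries (background 10%), and for 16 they were lower than all of them (23.9% of the 67, background 13.7%).

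The 5 members called lower were 2 H2A genes and 1 gene each of H1, H2B and H3. HIST1H2AM, an H2A gene, stood at 96.8, 68.5 and 74.3 CPM in siCont and 38.2, 47.2 and 56.9 CPM in siNGFR, and was 1.66-fold lower (log2 fold change -0.73 ± 0.16 SE, adjusted p = 0.0226, edgeR). HIST2H2AB, another H2A gene, stood at 62.0, 48.5 and 64.9 CPM in siCont and 38.6, 35.6 and 41.6 CPM in siNGFR (-0.58 ± 0.13 SE, adjusted p = 0.024, edgeR). For both H2A genes every siNGFR library was below every siCont library. HIST2H2BB, an H2B pseudogene, stood at 43.6, 36.2 and 41.8 CPM in siCont and 23.6, 28.4 and 29.9 CPM in siNGFR (-0.55 ± 0.12 SE, adjusted p = 0.0245, edgeR). HIST1H1B, which codes for the linker histone H1.5, stood at 194, 207 and 178 CPM in siCont and 131, 148 and 139 CPM in siNGFR (-0.45 ± 0.11 SE, adjusted p = 0.0436, edgeR). HIST1H3H, an H3 gene, stood at 157, 154 and 135 CPM in siCont and 108, 115 and 104 CPM in siNGFR (-0.43 ± 0.11 SE, adjusted p = 0.045, edgeR). The groups did not overlap for these 3 genes either. All 5 genes were picked by the test, which makes overlap unlikely. Of the 6 fits that each left out 1 library, HIST1H1B lost its call in 6, HIST1H3H in 5, HIST2H2BB in 4, HIST2H2AB in 3 and HIST1H2AM in 2. Without single libraries the count of members called lower ran from 0 to 10. It was 0, 2 and 1 without siCont libraries 4, 5 and 6, where 1.62%, 0.801% and 1.4% of all genes were called lower. It was 10, 0 and 6 without siNGFR libraries 4, 5 and 6, beside 3.31%, 0.548% and 1.49% of all genes. The fit without siNGFR library 4 also called 3 members higher, beside 4.31% of all genes. One fit of all 12 libraries called 0 lower, beside 1.23% of all genes.

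**Figure D2:**
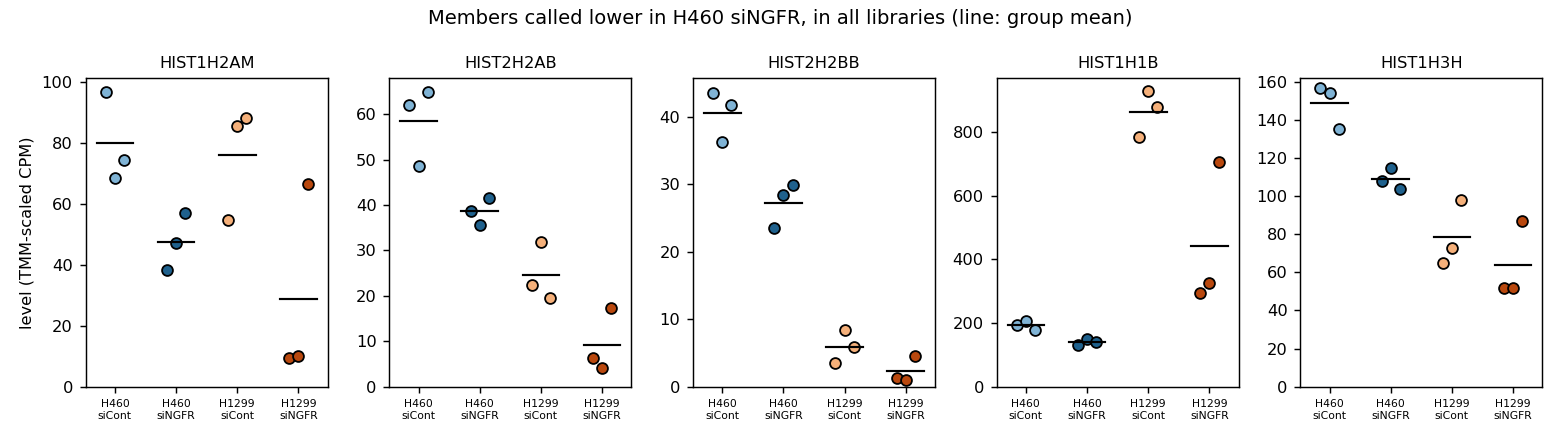
TMM-scaled CPM (y axis) of the 5 members called lower in H460 siNGFR, in the 4 groups (x axis), with 1 point per library and the group mean as a line. In H460 every siNGFR point lies below every siCont point in each panel, and the members were picked by the test, which makes overlap unlikely.

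On the other side no member passed the test. HIST3H2BB, an H2B gene, stood at 350, 323 and 250 CPM in siCont and 215, 466 and 598 CPM in siNGFR (0.49 ± 0.27 SE, adjusted p = 0.36, edgeR), so siNGFR held both the lowest and the highest library. HIST3H2BA, a pseudogene, stood at 16.9, 17.8 and 17.5 CPM and then 13.3, 26.1 and 35.1 CPM (0.54 ± 0.24 SE, adjusted p = 0.252, edgeR), with library 4 again the lowest. HIST1H2BI, an H2B gene, stood at 17.6, 18.7 and 16.5 CPM and then 22.9, 19.2 and 19.1 CPM (0.23 ± 0.11 SE, adjusted p = 0.294, edgeR), without overlap. HIST1H4J stood at 1150, 894 and 772 CPM in siCont and 520, 1197 and 1592 CPM in siNGFR, on both sides of the siCont range.

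In H1299, where the same question was asked, the histone genes stood lower together in siNGFR libraries 1 and 2 and near siCont in library 3. The sum of all members in siNGFR libraries 1, 2 and 3 was 0.308, 0.326 and 0.860 of the siCont mean. The H4 sum was 4900, 9599 and 6231 CPM in siCont and 1441, 1508 and 5286 CPM in siNGFR, or 0.209, 0.218 and 0.765 of the siCont mean. Library 3 thus lay inside the siCont range and the other siNGFR libraries far below it. H2A stood at 0.237, 0.236 and 0.873 of its siCont mean, H2B at 0.315, 0.321 and 0.927 and H1 at 0.354, 0.405 and 0.808. H3 stood at 0.601, 0.659 and 0.996, the highest of the 5 classes in libraries 1 and 2. The log2 ratio of the group means was -1.33 for H4, -1.16 for H2A and -0.41 for H3, beside replicate SDs of 0.83, 0.77 and 0.29.

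**Figure D3:**
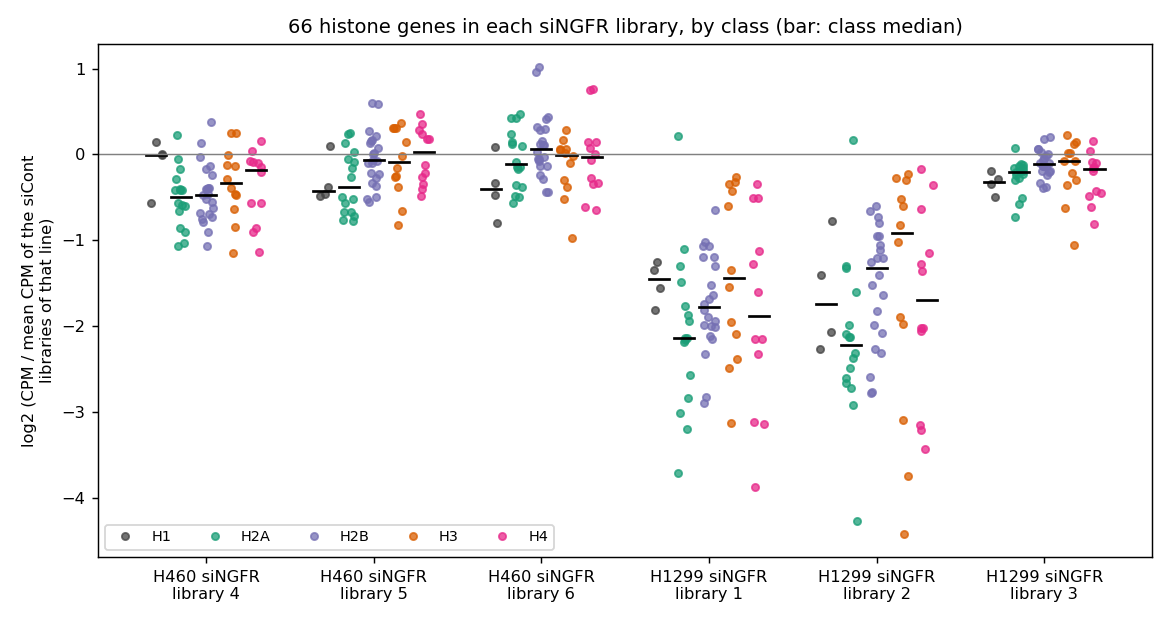
Level of 66 members in each siNGFR library (x axis) as log2 of its CPM over the mean CPM of the siCont libraries of that line (y axis), coloured by class, with the class median as a bar. In H1299 libraries 1 and 2, 65 of the 66 members lie below 0, and in library 3 the members lie closer to 0, with 52 below it.

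Across the 3 siNGFR libraries no member passed the test. Of the 67 members tested in H1299 by edgeR, 0 were called higher (background 0.0106% of 18925 genes) and 0 lower (background 0.0106%). At an unadjusted p under 0.05, 0 were higher and 43 lower, against 8.46% and 9.53% of all genes. DESeq2 called 0 higher and 1 lower, against 0.428% and 0.497% of all genes. The log2 fold change was below 0 for 66 of the 67, with a median of -0.97 against 0.00 over all genes. All siNGFR libraries were higher than all siCont libraries for 0 members (background 10.7%) and lower for 20 (29.9% of the 67, background 10.1%). Libraries 1 and 2 both lay above every siCont library for 1 member, HIST1H2AB (background 27.5%), and both below for 64 (95.5%, background 28.1%). Without a filter on low counts edgeR called 53 of the 76 lower, beside 3.11% of all genes.

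Without library 3, edgeR called 0 members higher (background 11.3%) and 61 of 67 lower (background 16.6%), with a median log2 fold change of -1.63. Called lower were 4 of 4 tested H1 genes, 15 of 16 H2A, 22 of 22 H2B, 10 of 13 H3 and 10 of 12 H4. The class medians were -2.14 for H2A, -1.79 for H4, -1.56 for H1, -1.43 for H2B and -1.08 for H3. Leaving out any other library of H1299 gave 0 calls in either direction, so the count of 61 rests on the removal of library 3.

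Several members with high levels followed this split between libraries. HIST2H3C, which led the H3 genes by share of CPM, fell less. It stood at 0.788, 0.813 and 1.01 of its siCont mean in siNGFR libraries 1, 2 and 3. HIST1H4K stood at 829, 2484 and 1041 CPM in siCont and 99.3, 134 and 830 CPM in siNGFR (-2.04 ± 0.79 SE, adjusted p = 0.261, edgeR), and without library 3 its log2 fold change was -3.64. HIST1H4J stood at 1636, 3667 and 2137 CPM in siCont and 286, 280 and 1776 CPM in siNGFR, with -3.14 without library 3. In both H4 genes siCont library 2 was the highest of the 6, and siNGFR library 3 lay within the siCont range. HIST2H2AA3 stood at 1678, 1823 and 1786 CPM in siCont and 399, 404 and 1586 CPM in siNGFR. HIST2H2BE, an H2B gene, stood at 1164, 1304 and 1276 CPM in siCont and 288, 251 and 1090 CPM in siNGFR. Every siNGFR library was below every siCont library for HIST2H2AA3 and HIST2H2BE. HIST2H4A, an H4 gene, stood at 733, 1017 and 957 CPM in siCont and 204, 222 and 812 CPM in siNGFR, with library 3 inside the siCont range.

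The members with the smallest p in H1299 included genes at low levels. HIST1H1E, which codes for the linker histone H1.4, stood at 849, 866 and 758 CPM in siCont and 234, 172 and 585 CPM in siNGFR (-1.32 ± 0.41 SE, adjusted p = 0.261, edgeR). HIST1H3C, an H3 gene, stood at 2.16, 3.08 and 1.79 CPM in siCont and 0.551, 0.109 and 1.13 CPM in siNGFR (-1.87 ± 0.53 SE, adjusted p = 0.261, edgeR), and DESeq2 called it. HIST2H2AB stood at 22.5, 31.9 and 19.5 CPM in siCont and 6.40, 4.05 and 17.3 CPM in siNGFR (-1.40 ± 0.46 SE, adjusted p = 0.261, edgeR). None of the 3 genes had overlapping groups, although library 3 was the siNGFR library nearest to siCont in each. They were named for their small p, which makes overlap unlikely. HIST1H1C stood at 1011, 1001 and 1108 CPM and then 435, 609 and 913 CPM, and HIST1H1B at 784, 929 and 879 CPM and then 294, 327 and 707 CPM. Both linker histone genes also had every siNGFR library below every siCont library.

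Further members, chosen after their values were seen, mark the ends of the range. HIST1H2AD, an H2A gene, stood at 198, 275 and 194 CPM in siCont and 16.9, 11.5 and 134 CPM in siNGFR, and without library 3 its log2 fold change was -3.95, the lowest of the members tested. The 6 members not called without library 3 were HIST1H2AB, HIST1H3F, HIST2H3A, HIST2H3C, HIST1H4A and HIST1H4C. HIST1H2AB, an H2A gene, stood at 39.4, 47.2 and 42.1 CPM in siCont and 49.9, 48.2 and 45.2 CPM in siNGFR (0.15 ± 0.12 SE, adjusted p = 0.51, edgeR). HIST1H4C, an H4 gene, stood at 131, 350 and 128 CPM in siCont and 142, 159 and 133 CPM in siNGFR, all within the siCont range. HIST1H4A stood at 13.2, 22.5 and 22.9 CPM and then 15.3, 17.4 and 21.8 CPM, also within it. HIST1H3F, an H3 gene, stood at 298, 353 and 326 CPM and then 271, 279 and 310 CPM, and HIST2H3A at 732, 556 and 712 CPM and then 533, 551 and 676 CPM. In these H3 genes libraries 1 and 2 lay just below the siCont range and library 3 inside it.

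Over 66 members, Pearson's r of the log2 level relative to the siCont mean of the line was 0.686 between H460 siNGFR library 4 and the mean of H1299 siNGFR libraries 1 and 2, with no library in common. Within its own group library 4 had an r of 0.163 with library 5 and -0.235 with library 6, which had 0.786 with each other. Libraries 5 and 6 were not set against H1299. The members include copies of identical coding sequence, so they are not independent. Exon length and the mean of H1299 libraries 1 and 2 had an r of 0.156 over 66 members, and coding GC content one of -0.143 over 60. Level per kb had an r of 0.0522 with that mean over 66 members. Without library 3 the median log2 fold change was -1.65 over 36 members with under 500 bases of exon and -1.63 over 31 longer ones.

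RN7SK, a small nuclear RNA that also lacks a poly(A) tail, was low in the same libraries. It took 5.89%, 5.99% and 7.14% of the counts in H1299 siCont libraries 1, 2 and 3 and 1.40%, 1.75% and 6.24% in siNGFR. In H460 it took 3.63%, 2.51% and 2.24% in siCont libraries 4, 5 and 6 and 1.82%, 4.33% and 5.79% in siNGFR, where library 4 was the lowest, as for the H2A, H2B and H4 sums. Genes with under 400 bases of exon took 48.7%, 53.7% and 51.5% in H1299 siCont and 41.7%, 47.2% and 50.6% in siNGFR, and 43.1%, 43.5% and 48.2% and then 50.5%, 53.1% and 55.6% in H460. The part of these shares in the histone values was not tested. With scaling from genes of 400 bases or more, the median log2 fold change of the members was -0.99 in H1299 and -0.12 in H460.

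**Figure D4:**
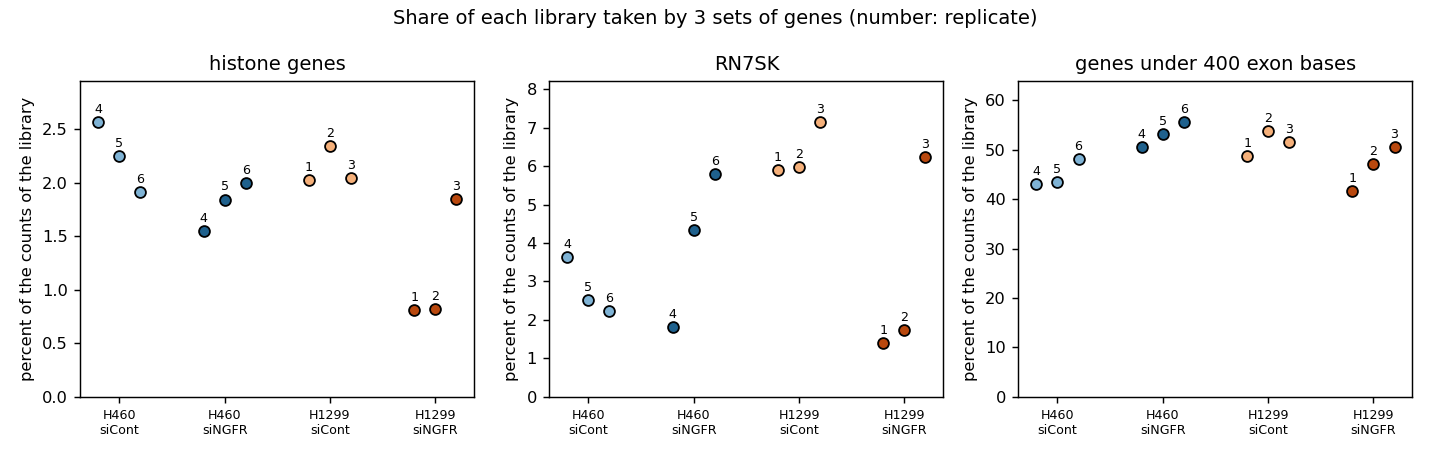
Share of the counts of each library (y axis, percent) taken by the histone genes, by RN7SK and by genes under 400 exon bases in the 4 groups (x axis), with 1 numbered point per library. H1299 siNGFR libraries 1 and 2 have the lowest shares of histone genes (0.811% and 0.822%) and of RN7SK (1.40% and 1.75%).

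The difference between the responses of the lines passed the test for no member. For the H460 response minus the H1299 response, edgeR called 0 of 68 members higher (background 0.158% of 21583 genes) and 0 lower (background 0.269%). At an unadjusted p under 0.05, 13 were higher and 0 lower, against 8.53% and 8.45% of all genes. DESeq2 called 1 higher and 0 lower, against 0.899% and 1.23% of all genes. The difference was above 0 for 64 members, with a median of 0.77 on the log2 scale. HIST1H3C had a log2 difference of 1.96 ± 0.56 SE, adjusted p = 0.122, edgeR. HIST1H2BI, whose siNGFR libraries in H1299 stood at 84.5, 106 and 149 CPM against 201, 164 and 163 CPM in siCont, had 0.85 ± 0.25 SE, adjusted p = 0.133, edgeR. HIST1H4I, an H4 gene, had 1.48 ± 0.56 SE, adjusted p = 0.209, edgeR, with 3.23, 3.28 and 3.18 CPM and then 3.05, 4.48 and 3.24 CPM in H460, and 18.0, 34.2 and 26.0 CPM and then 5.22, 6.29 and 19.4 CPM in H1299. For HIST1H4I the groups overlapped in both lines. The differences below 0 with the smallest p were -0.41 for HIST1H3F, -0.34 for HIST1H2AB and -0.15 for HIST1H3H. Without H1299 siNGFR library 3, 52 members were called higher (background 9.31%) and 0 lower (background 8.66%), with a median of 1.501, and without a filter on low counts 27 of 76 were called higher, beside 1.41% of all genes.

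The basal levels were compared between the lines under siCont. Of 68 members tested, 27 were higher in H460 (background 31.9% of 20105 genes) and 24 lower (background 31.3%). Line and any batch of the libraries cannot be told apart. By class, 1 H1 gene was higher in H460 and 3 lower, and these were 4 and 5 for H2A, 9 and 8 for H2B, 8 and 3 for H3, and 5 and 5 for H4. The log2 ratio of the sums in H460 over H1299 was 0.05 for H3, 0.05 for H2A, -0.01 for H2B, -0.45 for H4 and -1.09 for H1, beside a replicate SD of 0.39 for H4 and 0.09 for H1.

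The H3 genes had the widest range. HIST1H3G had 5, 10 and 9 counts in H460 siCont and 11846, 8999 and 10201 counts in H1299 siCont, or 0.231, 0.353 and 0.308 CPM against 512, 486 and 590 CPM. It was 1731-fold lower in H460 (-10.76 ± 0.21 SE, adjusted p = 6.25e-14, edgeR). HIST1H3G made up 16.6% ± 0.203 (SD, n = 3) of the H3 CPM in H1299 siCont and 0.00908% ± 0.00215 in H460 siCont, while the H3 sums of the lines overlapped. In H460 siNGFR it had 6, 3 and 7 counts, too few for a test of the response. HIST1H3D stood at 6.01, 6.35 and 6.15 CPM in H460 and 131, 172 and 183 CPM in H1299 (-4.72 ± 0.15 SE, adjusted p = 2.81e-12, edgeR). HIST1H3A was higher in H460, with 86.6, 81.8 and 74.5 CPM against 12.7, 13.8 and 12.4 CPM (2.63 ± 0.12 SE, adjusted p = 7.19e-11, edgeR). These 3 genes code for the same H3 protein.

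**Figure D5:**
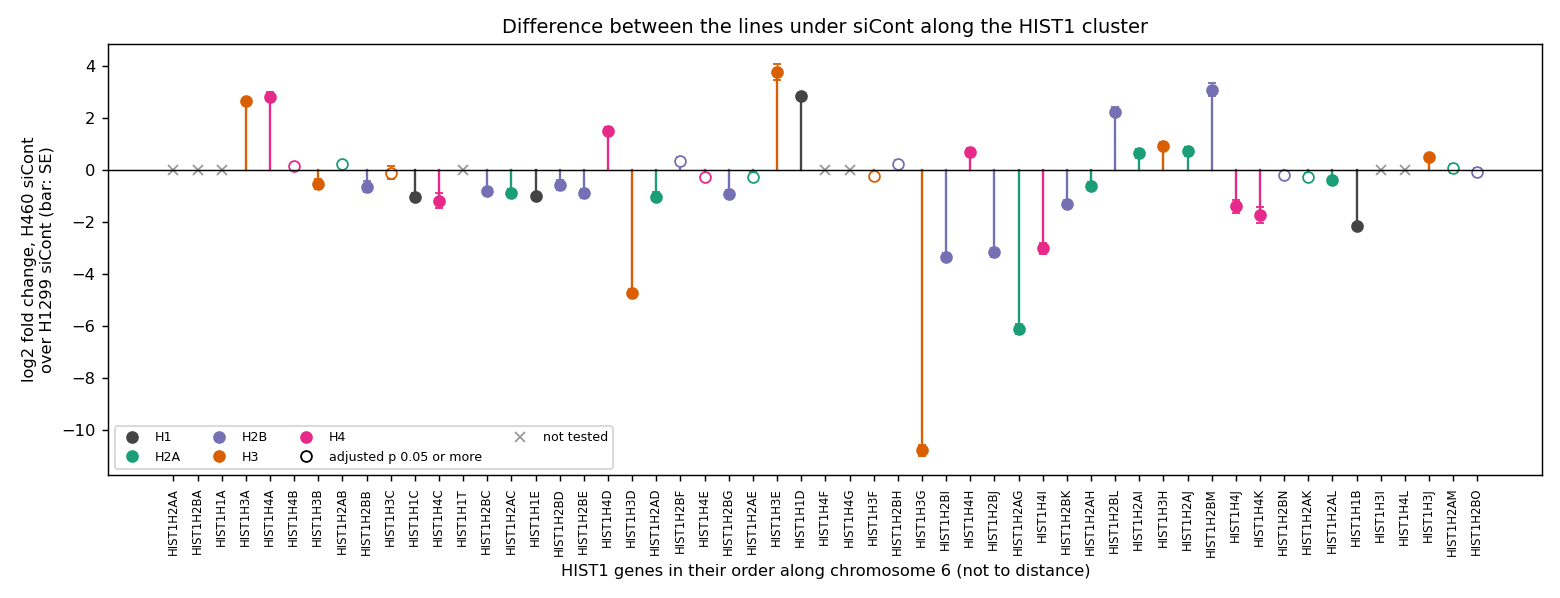
Log2 fold change of H460 siCont over H1299 siCont (y axis, with SE) of the HIST1 genes in their order along chromosome 6 (x axis, not to distance), coloured by class, filled for an adjusted p under 0.05, with crosses for genes not tested. HIST1H3G lies lowest at -10.76, HIST1H2BI, HIST1H2BJ, HIST1H2AG and HIST1H4I lie between -6.10 and -3.02, and HIST1H4H, between HIST1H2BI and HIST1H2BJ in order, lies above 0.

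Other HIST1 members lower in H460 lay at different distances from HIST1H3G (chromosome 6, 26269405 to 26271815, GRCh38). HIST1H2BI, the next member along the chromosome (start 26272976), stood at 17.6, 18.7 and 16.5 CPM in H460 and 201, 164 and 163 CPM in H1299 (-3.33 ± 0.13 SE, adjusted p = 1.95e-11, edgeR). HIST1H2BJ, an H2B gene in a part of the cluster farther along (start 27125897), stood at 46.8, 40.8 and 42.6 CPM against 301, 436 and 432 CPM (-3.18 ± 0.16 SE, adjusted p = 2.92e-10, edgeR). HIST1H2AG, the H2A gene that starts back to back with HIST1H2BJ, stood at 3.19, 3.28 and 3.01 CPM against 192, 275 and 180 CPM (-6.10 ± 0.19 SE, adjusted p = 1.98e-12, edgeR). HIST1H4H (start 26277609), nearer to HIST1H3G than HIST1H2BJ is, was called in the other direction, with 201, 169 and 157 CPM against 108, 91.2 and 125 CPM. The members before HIST1H3G, HIST1H2BH (start 26251651) and HIST1H3F (start 26250195), were not called, with log2 fold changes of 0.22 and -0.26. Among the 11 pairs of H2A and H2B genes with overlapping promoter windows, 10 had both genes tested, and 8 of these had the same sign. The signs differed for HIST1H2AD (-1.03) with HIST1H2BF (0.34) and for HIST1H2AM (0.06) with HIST1H2BO (-0.07). In 5 pairs both genes were called, all 5 in the same direction. Of all genes 31.9% were called higher and 31.3% lower between the lines. Other pairs of members were not counted, so nothing particular to these pairs can be read from the counts.

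Members of the other classes were higher in H460. HIST1H1D, which codes for the linker histone H1.3, stood at 165, 201 and 170 CPM in H460 and 26.5, 24.9 and 23.8 CPM in H1299 (2.83 ± 0.12 SE, adjusted p = 7.4e-11, edgeR), while the other 3 tested H1 genes were lower in H460. HIST1H4A, an H4 gene, stood at 132, 153 and 126 CPM against 13.2, 22.5 and 22.9 CPM (2.81 ± 0.18 SE, adjusted p = 5.84e-09, edgeR). HIST3H2A, an H2A gene, stood at 114, 65.5 and 89.5 CPM against 7.09, 12.3 and 9.94 CPM (3.20 ± 0.21 SE, adjusted p = 8.37e-09, edgeR). Its divergent partner HIST3H2BB had a log2 fold change of 3.09. HIST2H2BF, an H2B gene, stood at 278, 284 and 273 CPM against 69.4, 83.5 and 91.0 CPM (1.77 ± 0.13 SE, adjusted p = 1.71e-08, edgeR). The libraries of the lines did not overlap in any of these genes. All but HIST3H2BB were named here for their small p, which makes overlap unlikely. The share of all genes without overlap between the lines was not counted.

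In the smaller clusters, HIST4H4, the H4 gene on chromosome 12, stood at 113, 99.3 and 94.6 CPM in H460 siCont and 336, 422 and 405 CPM in H1299 siCont (-1.93 ± 0.13 SE, adjusted p = 1.13e-08, edgeR), and at 106, 88.4 and 81.4 and 273, 249 and 398 CPM in siNGFR. HIST2H2AC, the H2A gene back to back with HIST2H2BE, stood at 142, 177 and 138 CPM in H1299 siCont and 45.02, 38.5 and 140 CPM in siNGFR, and neither gene of the pair was called between the lines. HIST2H3D, an H3 gene, stood at 90.2, 127 and 112 CPM and then 81.8, 76.4 and 128 CPM in H1299, with library 3 above every siCont library. HIST2H2BA, HIST2H2BC, HIST2H2BD and HIST2H3DP1 had log2 fold changes of -0.41, -0.30, -0.43 and -0.20 in H460 and -1.49, -0.77, -0.69 and -0.66 in H1299, none of them called. HIST3H3, an H3 gene known from testis, stood at 1.71, 1.59 and 2.36 CPM in H460 siCont and 1.296, 1.95 and 1.16 CPM in H1299 siCont.

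For 8 members counts were too low for any test, with at most 13 counts in a library: HIST1H1A, HIST1H1T, HIST1H2AA, HIST1H2BA, HIST1H3I, HIST1H4F, HIST1H4G and HIST1H4L. HIST1H3E, an H3 gene, had 8, 14 and 4 counts in H1299 siCont, too few for a test of the H1299 response, against 163, 169 and 140 in H460 siCont. Every member had at least 1 count in some library.

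Other genes of the pathway were counted from 3 lists. Of 33 genes of histone mRNA synthesis and processing, which have 34 rows since RNU7-1 has 2, 0 were called in either direction by edgeR in H460 (median log2 fold change 0.02) and 0 in H1299 (0.10). At an unadjusted p under 0.05, 2 were higher and 5 lower in H460, against 9.42% and 9.82% of all genes. In H1299 these were 5 and 2, against 8.46% and 9.53%. DESeq2 called 1 higher in H460 (background 2.24%) and 0 otherwise. SLBP, which binds the stem-loop, stood at 15.99, 18.6 and 17.4 CPM in H460 siCont and 17.3, 15.6 and 13.1 CPM in siNGFR, and at 34.7, 31.5 and 28.2 CPM in H1299 siCont and 36.4, 35.8 and 30.1 CPM in siNGFR, and its groups overlapped within each line. NPAT, a coactivator of histone genes, stood at 3.15, 2.81 and 2.83 CPM in H1299 siCont and 4.17, 5.58 and 3.26 CPM in siNGFR (log2 fold change 0.54 ± 0.23 SE, adjusted p = 0.271, edgeR), without overlap. RNU7-1, the U7 RNA, stood at 35.9, 46.5 and 52.7 CPM and then 27.9, 31.5 and 55.2 CPM in H1299 in its row with more counts, with libraries 1 and 2 below the siCont range and library 3 above it. Without library 3, 6 genes were higher and 5 lower, beside 11.3% and 16.6% of all genes, with CTIF (0.62) and NCBP1 (0.65) among the higher, and LSM10 (-0.97), a part of the U7 particle, and NELFE (-0.58) among the lower.

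Of 45 S-phase genes, 0 were higher and 5 lower in H460 (median -0.16), where 1.81% and 2.5% of all genes were called. At an unadjusted p under 0.05, 0 were higher and 16 lower in H460, against 9.42% and 9.82% of all genes. The log2 fold change was below 0 for 41 of them in H460 and for 32 in H1299. ASF1B, a histone chaperone, stood at 34.1, 29.1 and 21.7 CPM in H460 siCont and 8.31, 11.5 and 10.2 CPM in siNGFR (log2 fold change -1.48 ± 0.17 SE, adjusted p = 0.000525, edgeR). TYMS, the thymidylate synthase, stood at 50.8, 50.6 and 46.8 CPM and then 33.7, 32.8 and 32.0 CPM (-0.57 ± 0.10 SE, adjusted p = 0.00748, edgeR). In H1299 edgeR called 0 of the 45 (median -0.13), and DESeq2 called 0. At an unadjusted p under 0.05, 0 were higher and 8 lower in H1299, against 8.46% and 9.53% of all genes. Without library 3, 2 were higher and 11 lower with a median of -0.12, against -1.63 for the histone genes, and 11.3% and 16.6% of all genes were called. GINS2 (-1.05) and TK1 (-0.75) were among the lower, and POLE (0.39) and ORC1 (0.39) were higher.

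Of 12 replacement histone genes, which lie outside the clusters and mostly give polyadenylated mRNAs, 0 were higher and 2 lower in H460 (median -0.33), beside the same shares of all genes as for the S-phase list. H1FX, which codes for a linker histone, stood at 32.0, 31.4 and 29.5 CPM in H460 siCont and 11.4, 11.6 and 14.3 CPM in siNGFR (log2 fold change -1.30 ± 0.12 SE, adjusted p = 0.000241, edgeR). H2AFY, which codes for macroH2A1, stood at 26.6, 26.4 and 26.5 CPM and then 15.9, 15.3 and 14.96 CPM (-0.77 ± 0.10 SE, adjusted p = 0.00143, edgeR). In H1299 edgeR called 0 of the 12 (median -0.40), and DESeq2 called 0. At an unadjusted p under 0.05, 0 of the 12 were higher and 7 lower in H460, against 9.42% and 9.82% of all genes. In H1299 these were 0 and 4, against 8.46% and 9.53%. Without library 3, 8 were lower and 0 higher, beside 16.6% and 11.3% of all genes, with H2AFZ at -1.34 and H2AFX at -1.18. Under siCont, 6 genes of histone mRNA synthesis and processing were higher in H460 and 17 lower, among them SLBP (-0.87 ± 0.12 SE, adjusted p = 1.31e-05, edgeR), 16 S-phase genes were higher and 13 lower, and 3 replacement histone genes were higher and 7 lower, while 31.9% of all genes were higher and 31.3% lower. In the difference of the responses H2AFY was the 1 gene of the 3 lists called by edgeR (-0.79 ± 0.16 SE, adjusted p = 0.0497, edgeR). Of the 12 fits that each left out 1 library, 10 called 0 replacement genes lower.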

How the data were processed

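Total RNA depleted of ribosomal RNA was sequenced from 12 libraries in 4 groups of 3, made with the Ion Total RNA-Seq kit. The authors aligned reads to hg38 with STAR and Bowtie2, versions and counting settings not given in the sources used, and deposited raw counts per gene, which were the unit used. The tables of their own comparisons (fold changes and probabilities) and 24 other per-sample columns, RPKM included, were not used. Groups were taken from the labels. Counts were filtered and scaled by TMM and tested by the quasi-likelihood test of edgeR 4.0.16 in R 4.3.3, over all genes with Benjamini-Hochberg adjustment, with the libraries of the groups compared in each fit. DESeq2 1.42.0, other scalings and filters, a replicate block and leaving out each library were alternatives. The scripts were tested on simulated data. The first of the 2 rows named HIST2H2AA4 is called HIST2H2AA3 after its identifier. In each class the 3 members with the highest level per kb were named, with up to 5 called members per direction of each comparison by p, the 3 with the smallest p where fewer than 3 passed, and the members of the smaller clusters. Members, lists and rules were chosen with earlier results of these data known. A gene withheld for evaluation is not reported here.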

Additional observations from a re-analysis of the deposited data

Results flagged for a closer look

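HIST1H2BI, an H2B gene, was flagged because its siNGFR libraries lay on opposite sides of the siCont means in the lines. Every H460 siNGFR library lay above the siCont mean of that line and every H1299 siNGFR library below the siCont mean of H1299, and the H460 response minus the H1299 response was 0.85 on the log2 scale. The test of that difference gave an adjusted p of 0.133 (edgeR), which misses the threshold. Among single members the sides were checked only for named ones. HIST2H3C came near the rule, at 1.19, 1.24 and 1.04 of the siCont mean in H460 siNGFR and 0.788, 0.813 and 1.01 in H1299 siNGFR. With 3 libraries in a group, no group was large enough for the check for a single library far from the others.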

How the results depend on the processing

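Leaving out 1 library at a time moved the H460 counts of members to 0 to 3 higher and 0 to 10 lower, of histone mRNA genes to 0 to 1 in each direction and of S-phase genes to 1 to 9 lower. Of all genes, 0.452% to 4.31% were called higher and 0.548% to 3.31% lower in those H460 fits. In H1299 leaving out 1 library gave 0 to 61 members lower, 0 to 6 histone mRNA genes higher and 0 to 5 lower, 0 to 2 S-phase genes higher and 0 to 11 lower, 0 to 8 replacement genes lower, a median of -1.63 to -0.72, and a log2 ratio of H2A sums of -1.99 to -0.85. The shares of all genes called there were 0% to 11.3% higher and 0% to 16.6% lower. For the difference of the responses leaving out 1 library gave 0 to 52 members higher, 0 to 4 and 0 to 5 histone mRNA genes, 0 to 3 and 0 to 7 S-phase genes, 0 to 5 and 0 to 1 replacement genes (0 lower in 10 of 12 fits), a median of 0.52 to 1.501, and -0.40 to 0.074 for HIST1H3H, which changed sign. The shares of all genes called ran from 0.0182% to 9.31% higher and 0.0364% to 8.66% lower.

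Scaling by library size only moved the median of all genes to -0.32 in H460, 0.18 in H1299, 0.25 between the lines and -0.50 for the difference. In H460 that scaling gave 32 members, 11 histone mRNA genes, 33 S-phase genes and 8 replacement genes lower, where 21.2% of all genes were called lower. The H460 median of the members was -0.46 and HIST1H2BI stood at -0.091. The H460 class sums became -0.46 (H1), -0.31 (H2A), -0.31 (H2B), -0.28 (H3) and -0.32 (all). Between the lines 9, 5 and 2 genes of the 3 lists were lower, beside 22.4% of all genes. The median there was 0.44 and the sums were -0.83 (H1), 0.32 (H2A), 0.26 (H2B), 0.31 (H3) and 0.068 (all). For the difference 10, 11 and 3 genes of the lists were lower, beside 13.4% of all genes, with a median of the members of 0.32. Without a filter on low counts, 2 members were higher and 14 lower in H460, with 1 histone mRNA gene higher, beside 1.61% and 1.81% of all genes. In H1299 that gave 53 members, 1 S-phase and 4 replacement genes lower and 2 histone mRNA genes higher, beside 3.11% and 1.34% of all genes. For the difference it gave 27 members higher and 1, 3 and 2 genes of the lists lower, beside 1.41% and 1.5% of all genes. DESeq2 gave 9 members lower and 1 histone mRNA gene higher in H460, 1 member lower in H1299, and 1 member higher and 1 histone mRNA gene lower for the difference. Of all genes it called 2.47% lower and 2.24% higher in H460, 0.497% lower in H1299, and 0.899% higher and 1.23% lower for the difference. One fit of all 12 libraries gave 0 members and 3 S-phase genes lower in H460, beside 1.23% of all genes. Scaling from genes of 400 bases or more gave 0 replacement genes lower for the difference. Counting copies of identical coding sequence once, chosen after seeing the data, gave -0.12 for H3 between the lines. Apart from construction (fewer libraries or other genes tested), the cause was not tested.

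Same-numbered siCont and siNGFR libraries of a line were not regularly more alike than others. Only for H460 number 5 and H1299 numbers 1 and 3 was their correlation above the highest with another number. The correlation of their deviations was 0.00133, 0.0846 and -0.0221 in H460 and 0.358, -0.238 and 0.112 in H1299. The highest correlation with a library of another number was 0.0718, 0.00402 and 0.0345 in H460 and 0.309, 0.285 and -0.0491 in H1299. With the replicate block 1 member and 2 S-phase genes were lower in H460, beside 1.51% of all genes, and 0 replacement genes for the difference. Between the lines no number is shared. No member had the same counts as another row, so that alternative gave no value.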
